A study of Mus musculus with 12 samples.

Results

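The genes described here drive cells through DNA replication and mitosis. The list holds 38 genes, and each was followed through the transcript cluster that the array's annotation pairs with that gene symbol and no other; where a symbol had several clusters, the one with the highest mean over the 12 arrays was to be taken. Such a cluster existed for 35 of the 38 genes, out of 30412 clusters with exactly 1 symbol and 65587 in the table, and each of the 35 had a single cluster. Ccnb1, Foxm1 and Mcm7 had no cluster with exactly 1 symbol and are not analysed here. The 35 measured members comprised 22 genes of mitosis and its entry and 13 genes of the start of S phase and DNA synthesis.

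RNA came from the quadriceps muscle of 12 male mice aged 6 weeks on the C57BL/10 background, all utrn+/-;mdx: they lack dystrophin through the mdx mutation and carry 1 disrupted copy of the utrophin gene. The treated groups, of 3 mice each, received spironolactone (100 mg/kg per day) plus lisinopril (20 mg/kg per day) in pellets, eplerenone (200 mg/kg per day) plus lisinopril (20 mg/kg per day) in pellets, or prednisolone (1.5 mg/kg per day) in the water bottle, each from 4 to 6 weeks of age, and 3 mice on normal chow were left untreated. Spironolactone and eplerenone block the mineralocorticoid receptor, lisinopril inhibits angiotensin-converting enzyme, and prednisolone is a glucocorticoid. Each mouse had its own array; neither healthy mice nor mice on drug-free pellets were among the samples, so every difference is measured within dystrophic muscle.

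In healthy adult muscle the fibres are post-mitotic and few cells divide. In mdx muscle fibres degenerate and regenerate, and myoblasts derived from satellite cells, macrophages and fibroblasts proliferate in the lesions. A cell that enters S phase transcribes genes of replication through E2F factors, and later, in G2 and mitosis, it transcribes cyclins B, kinases, motor proteins and kinetochore genes. Genes of the late wave often carry a cell cycle homology region (CHR), the site of the MuvB complex, near their start site, together with CCAAT boxes. In RNA from whole muscle, fewer dividing cells and less of these transcripts per cell cannot be told apart.

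The promoters of the members are described first. The members varied together from mouse to mouse, as given below, and the part of promoter elements in this was not tested. RefSeq promoter windows of GRCm38.p6, from 250 bases before to 50 bases after the start, were found for 29 of the 35 members (30 windows, since Prc1 has 2). They were searched on both strands for the CHR letters TTTGAA or TTTAAA, for CCAAT, and for the E2F letters TTCCCGC or TTGGCGC. The CHR letters stood in 17 of 19 windows of mitosis members and in 5 of 11 windows of replication members, against 27.6% of all 32851 windows. CCAAT stood in 17 of 19 and 8 of 11, against 37.4% of all windows, and CHR with CCAAT in 16 of 19 and 4 of 11, against 10.7%. The E2F letters showed the opposite tilt, with 2 of 19 windows of mitosis members and 5 of 11 of replication members, against 6.81% of all. Cell cycle genes that are not on the list held these letters too. CHR stood in 24 of 43 windows of further kinetochore and spindle genes and in 8 of 31 of further origin and fork genes. It stood in 8 of 18 of pocket protein, E2F and MuvB genes, 2 of 9 of CDK inhibitors and 0 of 6 of G1 cyclins and kinases. The E2F letters stood in 11, 16, 5, 2 and 2 of these windows, in that order. These are counts of letters, given with no test, and the short motifs can occur in any promoter.

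The last 150 bases before the start set by the promoter window are printed for 3 genes of each role. They are the genes with the largest spread between mice of a group among those that have 1 window and whose stretch holds the element of the role, CHR for mitosis and E2F for replication, a choice made after the values were seen. The strand of the gene is given 5′ to 3′ and capitals mark a match on either strand to the CHR, CCAAT or E2F letters.
Mki67: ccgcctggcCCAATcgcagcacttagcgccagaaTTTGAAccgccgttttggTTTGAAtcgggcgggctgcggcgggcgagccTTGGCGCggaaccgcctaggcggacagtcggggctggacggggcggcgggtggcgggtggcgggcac
Top2a: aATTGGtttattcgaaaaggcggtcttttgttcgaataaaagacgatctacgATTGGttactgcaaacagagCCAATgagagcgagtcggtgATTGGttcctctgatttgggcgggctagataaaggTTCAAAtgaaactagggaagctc
Kif11: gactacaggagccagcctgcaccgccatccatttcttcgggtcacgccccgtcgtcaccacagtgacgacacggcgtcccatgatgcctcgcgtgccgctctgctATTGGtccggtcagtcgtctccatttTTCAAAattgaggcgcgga
E2f8: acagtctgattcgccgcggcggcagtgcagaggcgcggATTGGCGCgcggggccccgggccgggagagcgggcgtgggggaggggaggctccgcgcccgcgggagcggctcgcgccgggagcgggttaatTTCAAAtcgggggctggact
Mcm6: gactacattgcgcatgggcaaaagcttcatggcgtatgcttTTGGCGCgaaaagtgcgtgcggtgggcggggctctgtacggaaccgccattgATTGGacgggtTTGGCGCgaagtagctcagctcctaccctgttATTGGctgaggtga
Rrm1: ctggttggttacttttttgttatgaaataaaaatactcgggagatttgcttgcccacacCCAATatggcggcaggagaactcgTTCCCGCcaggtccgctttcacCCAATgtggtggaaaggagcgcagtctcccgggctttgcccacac
These stretches lie at Mki67 chr7:135716380-135716529 on the minus strand, Top2a chr11:99024190-99024339 on the minus strand, Kif11 chr19:37376232-37376381 on the plus strand, E2f8 chr7:48881597-48881746 on the minus strand, Mcm6 chr1:128359706-128359855 on the minus strand and Rrm1 chr7:102441545-102441694 on the plus strand. The start set by the window can lie inside the gene's annotated span. On the minus strand the span of E2f8 begins at 48882073, so its whole stretch lies within the gene. Those of Mki67 and Top2a begin at 135716450 and 99024199, so part of each stretch lies within the gene. Mki67 has 2 CHR matches upstream of its E2F match. In Top2a and Kif11 the CHR match lies close to the start with CCAAT letters upstream of it. In E2f8 the CCAAT and E2F letters overlap in a single run, and a CHR match lies nearer to the start. Mcm6 holds 2 E2F and 2 CCAAT matches, Rrm1 holds 1 E2F match between 2 CCAAT matches, and neither has a CHR match in these bases.

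The leading result is that these genes differed between mice of the same group and moved together, while no difference between groups passed the test. Mki67, which encodes the proliferation marker Ki-67, had log2 signals of 12.15, 11.42 and 10.63 in the 3 spironolactone plus lisinopril mice and 11.21, 10.55 and 11.67 in the eplerenone plus lisinopril mice, then 10.15, 10.11 and 11.41 in the prednisolone mice, against 10.51, 11.53 and 10.52 in the untreated mice (replicates 1 to 3 in each). The groups overlapped, and the range within each group, from 1.02 in untreated to 1.52 in spironolactone plus lisinopril, was larger than the largest difference between any pair of group means, 0.84. Top2a, the DNA topoisomerase that disentangles replicated chromosomes, read 9.80, 9.17 and 8.63 with spironolactone plus lisinopril, 9.30, 8.56 and 9.61 with eplerenone plus lisinopril, and 8.39, 8.34 and 9.43 with prednisolone, against 8.74, 9.59 and 8.64 in untreated mice. The same mice were high for both genes: spironolactone plus lisinopril mouse 1, eplerenone plus lisinopril mouse 3, prednisolone mouse 3 and untreated mouse 2.

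**Figure D1:**
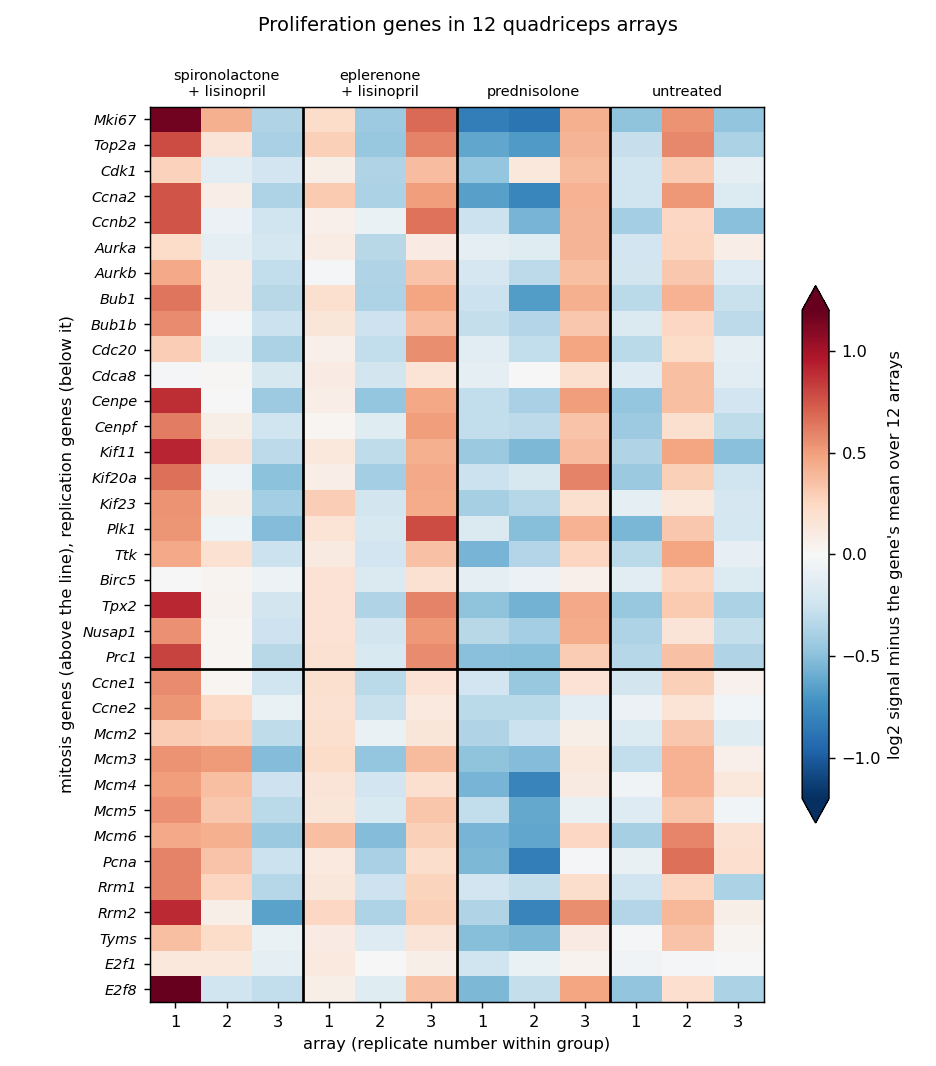
Each row is a member and each column an array, grouped by treatment. The colour is the log2 signal minus the gene's own mean over the 12 arrays, capped at 1.2 in either direction. Whole columns are red or blue: spironolactone plus lisinopril array 1, eplerenone plus lisinopril array 3, prednisolone array 3 and untreated array 2 are red for most genes, and red columns occur in every group.

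This array pattern was shared across the list. Within their group, spironolactone plus lisinopril mouse 1 held the highest value for 32 of 35 members, eplerenone plus lisinopril mouse 3 for 30, prednisolone mouse 3 for 35 and untreated mouse 2 for 34. Spironolactone plus lisinopril mouse 3 and eplerenone plus lisinopril mouse 2 were lowest for 35 of 35 each, prednisolone mouse 2 for 26 and untreated mouse 1 for 27. All 4 of these highest mice coincided for 28 of 35 members (20 of 22 mitosis genes and 8 of 13 replication genes), against 3.2% of all tested clusters; the pattern was read from the members, so their own count is a description. Of cell cycle genes that are not on the list, 38 of 46 further kinetochore and spindle genes had it, against 9 of 27 further origin and replication fork genes, 2 of 6 G1 cyclins and kinases, 3 of 16 pocket protein, E2F and MuvB genes and 0 of 7 CDK inhibitors. The count of members above their own 12-array mean shows how complete the swing was: 34, 26 and 0 of 35 in the spironolactone plus lisinopril mice, 34, 0 and 35 with eplerenone plus lisinopril, 0, 2 and 32 with prednisolone, and 0, 34 and 8 in untreated mice.

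Most of the remaining members varied between mice in the same way. Birc5, E2f1, and Cdca8 with values of 5.91, 5.93 and 5.73, did not follow in the spironolactone plus lisinopril group, where mouse 2 held their highest value. In the eplerenone plus lisinopril group mouse 1, not mouse 3, held the highest value of Ccne1, Ccne2, Mcm2, Mcm6 and E2f1. Among untreated mice E2f1 was highest in mouse 3. The residual SDs listed here give the size of the spread, not which mouse was high. Of the kinesins, Kif11, which pushes spindle poles apart, read 9.71, 8.95 and 8.49 with spironolactone plus lisinopril, 8.93, 8.50 and 9.22 with eplerenone plus lisinopril and 8.35, 8.26 and 9.17 with prednisolone, against 8.44, 9.28 and 8.30 in untreated mice. Cenpe, the kinetochore motor, read 8.23, 7.35 and 6.91, then 7.43, 6.89 and 7.81, and 7.05, 6.96 and 7.85 in the same treated groups, against 6.89, 7.71 and 7.12 in untreated mice. In both genes the high mice were those named above, and the groups overlapped. The spindle checkpoint kinase genes Bub1, Bub1b and Ttk had residual SDs of 0.47, 0.36 and 0.37, the spindle assembly factor Tpx2 0.52, the midzone protein Prc1 0.46, the cytokinesis kinesins Kif20a and Kif23 0.47 and 0.35, and the chromosomal passenger kinase Aurkb 0.35. On the replication side Ccne1, the other E cyclin, had 0.32, Mcm3 0.45, Mcm6 0.50, and Rrm2 0.58, the largest of that role.

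The spread within groups was large for most members and set the precision of every comparison. The residual SD of a member, pooled over the 4 groups, had a median of 0.37 (0.42 for mitosis genes and 0.35 for replication genes), against 0.16 over all tested clusters. By this measure 28 of 35 members lay in the 10% of all clusters with the largest spread, 19 of 22 mitosis genes and 9 of 13 replication genes; set only against clusters of a like level, the count was 25. The exceptions were E2f1, the activator of the S phase programme, with an SD of 0.10, and Birc5, which encodes the inhibitor of apoptosis and mitotic regulator survivin, with 0.16. Smaller spreads than most also held for Cdca8 (0.20), Ccne2 (0.21), Tyms (0.25), Aurka (0.26) and Mcm2 (0.26). E2f1 read 5.65, 5.65 and 5.41 with spironolactone plus lisinopril, 5.64, 5.52 and 5.59 with eplerenone plus lisinopril, 5.29, 5.45 and 5.56 with prednisolone and 5.48, 5.51 and 5.52 in untreated mice. Its values stayed within a narrow band, with a largest range in any group of 0.27. E2f1 and Birc5 also had the lowest mean signals of the members, 5.52 and 5.57, under the array medians of 5.70 to 5.81. The part of low signal in their small spread was not tested.

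**Figure D2:**
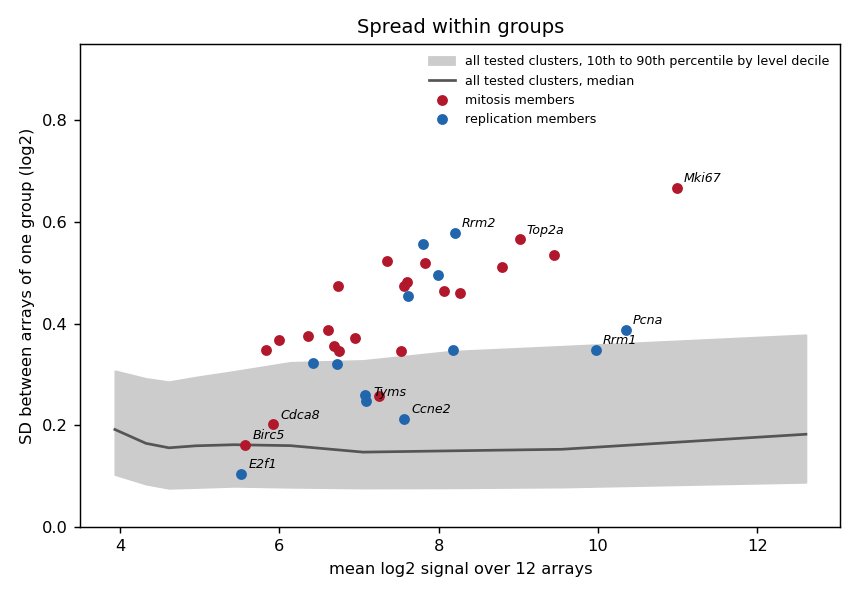
The vertical axis is the residual SD between arrays of a group (log2, pooled over the 4 groups) and the horizontal axis the mean log2 signal over 12 arrays. The grey band covers the 10th to the 90th percentile of all tested clusters and the line their median; 25 of the 35 members (red mitosis, blue replication) exceed the 90th percentile of their level decile, and E2f1 and Birc5 lie near the line or under it.

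Measured against this spread, group membership accounted for little. The share of a member's variation over the 12 arrays that lay between the 4 group means had a median of 15.8% (13.6% for mitosis genes, 21.4% for replication genes), against 37.7% over all tested clusters. For 35 of 35 members the largest difference between group means was smaller than the largest range within a group (83.1% of all clusters), and for 27 of 35 it was smaller than the range within every group (16% of all clusters). In 29 of 35 members, all 22 mitosis genes among them, the mean square between groups was smaller than that within groups, which held for 33.3% of all clusters. Cdk1, the kinase that starts mitosis, lay at the low extreme with 0.521% between groups. It read 7.03, 6.63 and 6.52 with spironolactone plus lisinopril (mean 6.73 ± 0.27, SD, n = 3), 6.82, 6.39 and 7.12 with eplerenone plus lisinopril (6.78 ± 0.37), and 6.29, 6.88 and 7.14 with prednisolone (6.77 ± 0.44), against 6.51, 7.06 and 6.64 in untreated mice (6.74 ± 0.29). Ccne2, which encodes the E2 cyclin of S phase entry, had the largest share at 49.4%, followed by Tyms (47.1%), Pcna (45.4%) and Mcm4 (42.9%), all on the replication side. The limma F-test over the 4 groups called 0 of 35 members after Benjamini-Hochberg adjustment (1.93% of all clusters were called), and 0 at an unadjusted p under 0.05 (19.6% of all clusters); the smallest adjusted p was 0.30, for Ccne2.

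The first treatment question was whether prednisolone altered these genes, since glucocorticoids can slow the division of many cell types. No member passed limma's moderated test at an adjusted p of 0.05 in prednisolone against untreated muscle, where 6.39% of all clusters did. The lowest values were those of replication genes. Pcna, the sliding clamp of the replication fork, read 9.81, 9.52 and 10.33 with prednisolone, against 10.26, 11.01 and 10.55 in untreated mice. The log2 difference was -0.72 ± 0.28 (SE; 95% interval -1.33 to -0.11; adjusted p = 0.157), and the groups overlapped through prednisolone mouse 3. Tyms, thymidylate synthase, read 6.57, 6.55 and 7.18 with prednisolone, against 7.07, 7.43 and 7.12 in untreated mice. The difference was -0.44 ± 0.18 (adjusted p = 0.193), and again prednisolone mouse 3 lay inside the untreated range. Mcm4, a subunit of the replicative helicase, read 7.62, 7.39 and 8.30 with prednisolone, against 8.15, 8.60 and 8.31 in untreated mice, a difference of -0.58 ± 0.25 (adjusted p = 0.206).

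These were the 3 members with an unadjusted p under 0.05, all lower, where 21.6% of all clusters reached that level and 10.8% were lower, a share near that of the members. None of the 3 reached it without untreated mouse 2, without prednisolone mouse 1 or without prednisolone mouse 2. Ccne2 was the 1 member whose groups did not overlap (26.7% of all clusters had no overlap, 13.3% lower): it read 7.25, 7.25 and 7.44 with prednisolone, against 7.50, 7.73 and 7.53 in untreated mice, a difference of -0.28 ± 0.16 (adjusted p = 0.354). Mcm2, another helicase subunit, read 6.72, 6.81 and 7.14 with prednisolone, against 6.91, 7.40 and 6.93 in untreated mice, and was at -0.19. Of the remaining subunits Mcm3 was at -0.35, Mcm5 at -0.38 and Mcm6 at -0.43, none past the test. For the ribonucleotide reductase genes, which supply deoxynucleotides, Rrm1 was at 0.02 and Rrm2 at -0.24. Below 0 lay 23 of the 35 members, where 52.7% of all clusters did. They were 11 of 13 replication genes, with a median of -0.28, and 12 of 22 mitosis genes, with a median of -0.03, beside a median of -0.01 over all tested clusters. Over the 35 members the median was -0.08, and it was decided by single mice: it was -0.31 without prednisolone mouse 3, -0.17 and -0.19 without untreated mice 1 and 3, 0.01 and 0.02 without prednisolone mice 1 and 2, and 0.11 without untreated mouse 2. Without prednisolone mouse 3, 1 member, Tyms, passed the test at -0.64 (adjusted p = 0.0454).

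**Figure D3:**
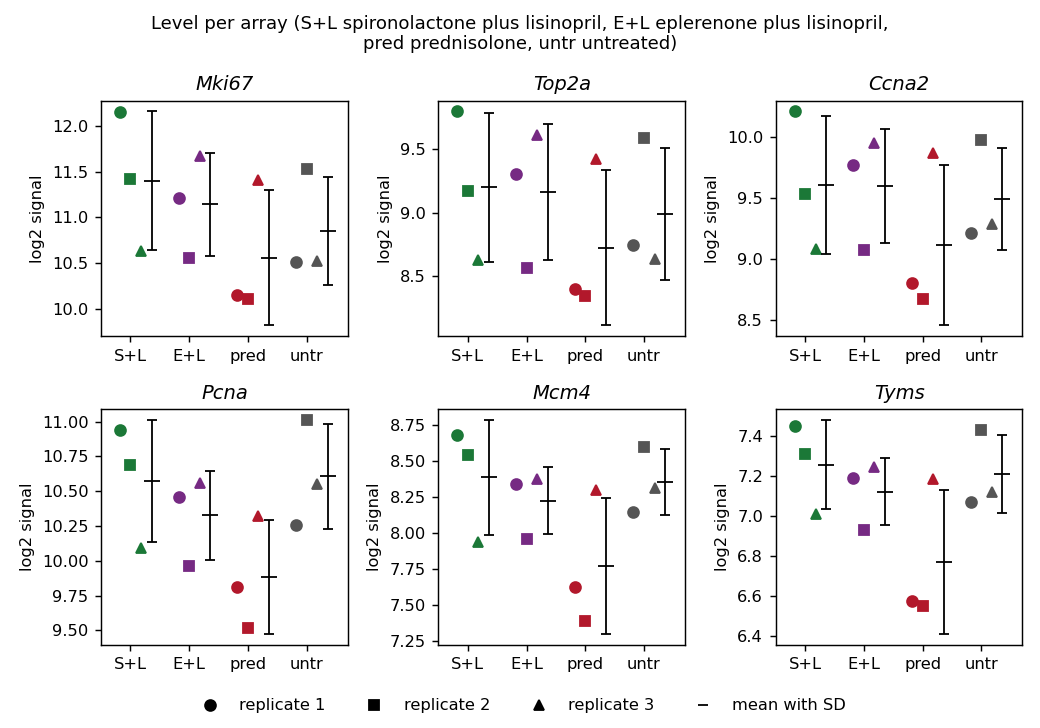
Log2 signal of 3 mitosis genes (upper row) and 3 replication genes (lower row) in each array, by group; symbols are replicates 1 to 3, and the bar is the group mean with its SD. For each of the 6 genes the largest range within a group exceeds the largest difference between group means. In the lower row prednisolone replicates 1 and 2 lie below the untreated arrays while replicate 3 lies among them.

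Under prednisolone the differences of the mitosis genes lay on both sides of 0. Ccna2, the cyclin of S phase and G2, had the lowest value at -0.38 (8.80, 8.67 and 9.87 with prednisolone, against 9.21, 9.97 and 9.28 in untreated mice), while Kif20a, a kinesin of cytokinesis, had the highest at 0.18. Mki67 was at -0.29 ± 0.47, with a 95% interval of -1.33 to 0.74, so a change of more than 1 log2 unit downward is within its error. The difference between the median deviations of replication and mitosis members, taken within each array, was -0.06, -0.15 and -0.29 in the prednisolone mice and 0.16, 0.02 and 0.27 in the untreated mice. It was -0.05, 0.23 and 0.01 with spironolactone plus lisinopril and 0.02, 0.05 and -0.26 with eplerenone plus lisinopril. The prednisolone and untreated values did not overlap on this scale. The spironolactone plus lisinopril values also lay above those of prednisolone, but barely, with -0.05 against -0.06 at the nearest. The eplerenone plus lisinopril values overlapped both prednisolone and untreated. Of single clusters, 26.7% had no overlap between prednisolone and untreated, and 24% between spironolactone plus lisinopril and prednisolone. The share for an index of this kind is not known. No test was made of this difference, since the members were chosen with results of these data known.

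The second question was whether blocking the mineralocorticoid receptor together with angiotensin-converting enzyme altered these genes. Spironolactone plus lisinopril gave 0 of 35 members past the threshold against untreated (0.0822% of all clusters) and 0 at an unadjusted p under 0.05 (16.2% of all clusters), and the groups overlapped for every member (20.4% of all clusters had no overlap). The median difference of the members was 0.13, beside -0.04 for all clusters, and 31 of 35 lay above 0, where 40.8% of all clusters did. The largest was Mki67 at 0.55 ± 0.47 (adjusted p = 0.569). The smallest p values belonged to Ccne2 (8.10, 7.80 and 7.48, against 7.50, 7.73 and 7.53 in untreated mice; 0.20 ± 0.16), Cenpf and E2f8. Cenpf, a kinetochore protein, read 7.57, 7.02 and 6.71 with spironolactone plus lisinopril, against 6.52, 7.14 and 6.65 in untreated mice (0.33 ± 0.27). E2f8, an atypical E2F that represses transcription late in the cycle, read 9.06, 7.57 and 7.51, against 7.33, 8.01 and 7.43 (0.46 ± 0.39), and its highest value came from mouse 1 alone. Without that mouse the median over the members was -0.06, and without mouse 3 of the same group it was 0.38, so the sign rested on mouse 1. The median was 0.30 without untreated mouse 2, and 0.02 and 0.08 without untreated mice 1 and 3.

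Eplerenone plus lisinopril likewise gave 0 of 35 members past the threshold against untreated (0.0296% of all clusters) and 0 at an unadjusted p under 0.05 (13.4% of all clusters), with overlapping groups for every member (16.9% of all clusters had no overlap). The median difference was 0.11, beside -0.03 for all clusters, with 26 of 35 above 0 (44% of all clusters), 20 of 22 mitosis genes and 6 of 13 replication genes. Ccnb2, a B cyclin that activates Cdk1, had the largest difference at 0.43 ± 0.33 (8.34, 8.19 and 8.92, against 7.86, 8.52 and 7.77 in untreated mice; adjusted p = 0.588). Plk1, the polo kinase of spindle assembly, was at 0.40 ± 0.34 with 7.77, 7.42 and 8.39, against 7.05, 7.93 and 7.40. Nusap1, a spindle protein, was at 0.33 ± 0.28 with 6.79, 6.39 and 7.13, against 6.25, 6.76 and 6.32. All 3 overlapped the untreated group, and Pcna was lowest at -0.28. The median was -0.04 without eplerenone plus lisinopril mouse 3, 0.05 without mouse 1 and 0.32 without mouse 2 of that group, and it was 0.33 without untreated mouse 2 and 0.01 and 0.02 without untreated mice 1 and 3. The 3 treatments were set against the same untreated mice, so their differences are not independent.

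**Figure D4:**
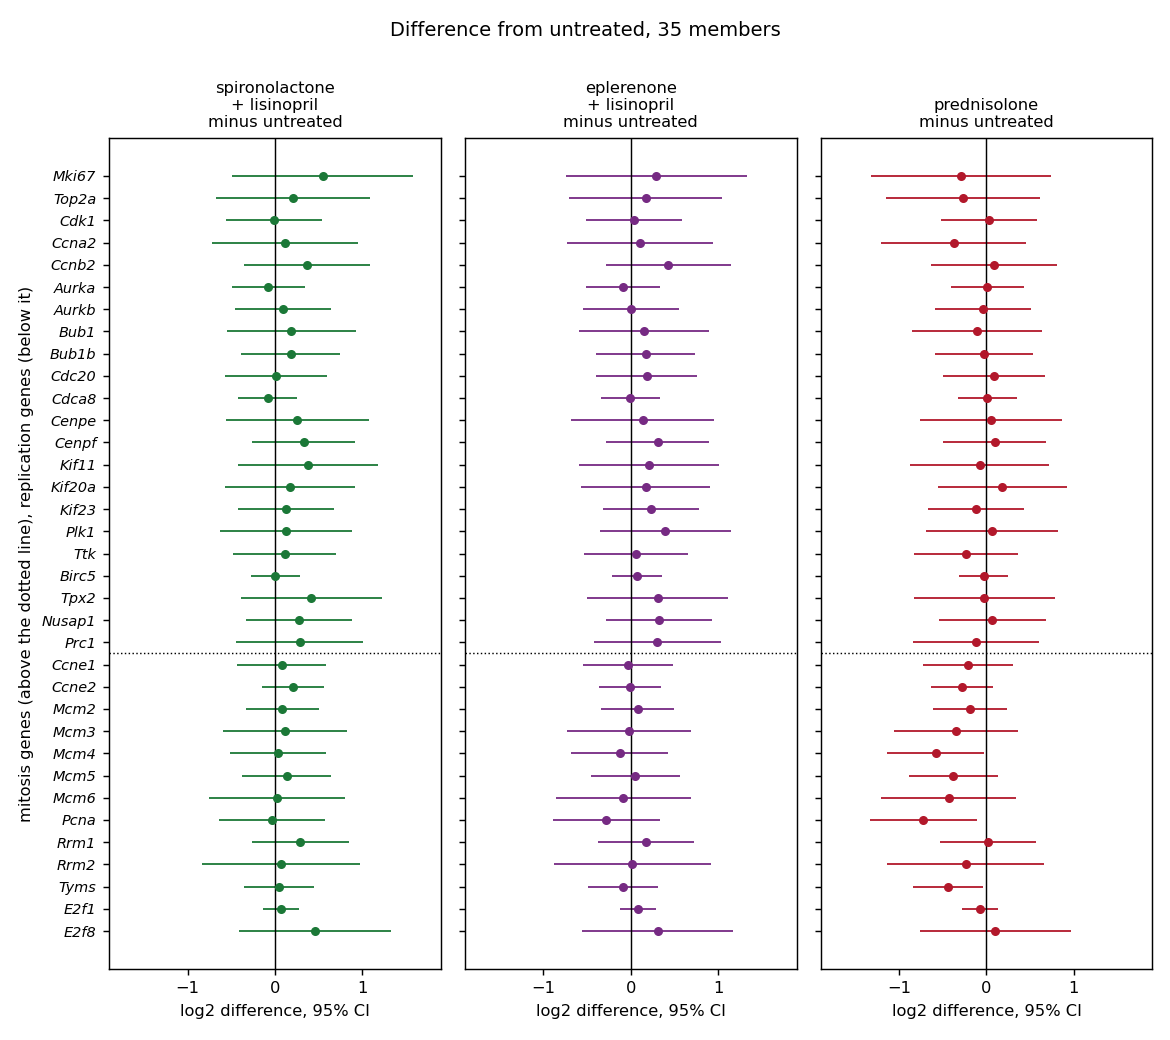
Log2 difference from untreated for each of the 35 members under the 3 treatments, with 95% confidence intervals from limma (n = 3 arrays per group). The intervals include 0 except those of Pcna, Mcm4 and Tyms under prednisolone, whose adjusted p did not pass, and they are widest for Mki67.

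The remaining comparisons set the treatments against each other. Spironolactone plus lisinopril against eplerenone plus lisinopril called 0 of 35 members (0% of all clusters) and 0 at an unadjusted p under 0.05 (4.49% of all clusters), with overlapping groups for every member (9.68% of all clusters had no overlap). The member differences there ran from -0.27 (Plk1) to 0.26 (Mki67) with a median of 0.04, and their standard errors from 0.09 to 0.47 leave room for differences of that size and more. Cdc20, an activator of the anaphase-promoting complex, was at -0.17 with a 95% interval of -0.75 to 0.41. For Ccne2, the member with the smallest p, the values were 8.10, 7.80 and 7.48 with spironolactone, against 7.75, 7.30 and 7.68 with eplerenone, a difference of 0.21 ± 0.16. Pcna read 10.94, 10.69 and 10.09 with spironolactone, against 10.46, 9.96 and 10.56 with eplerenone, and Plk1 read 8.14, 7.55 and 7.08, against 7.77, 7.42 and 8.39. A p that misses the threshold does not show that the combinations act alike.

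Against prednisolone, spironolactone plus lisinopril called 0 of 35 members (0.822% of all clusters), with 30 of 35 above 0 (41.1% of all clusters) and a median of 0.29, beside -0.04 for all clusters. An unadjusted p under 0.05 was reached by 5 members, all higher and all of replication: Ccne2, Tyms, Pcna, Mcm4 and Mcm5 (16.3% of all clusters reached that level, 7.45% higher). Ccne2 (8.10, 7.80 and 7.48 with spironolactone plus lisinopril, against 7.25, 7.25 and 7.44 with prednisolone) was at 0.48 ± 0.16 (adjusted p = 0.176) and was the 1 member without overlap (24% of all clusters had no overlap, 10.2% higher). Tyms (7.45, 7.31 and 7.01, against 6.57, 6.55 and 7.18) was at 0.49 ± 0.18 and Pcna (10.94, 10.69 and 10.09, against 9.81, 9.52 and 10.33) at 0.69 ± 0.28, with Mcm4 at 0.62 ± 0.25 and Mcm5 at 0.51 ± 0.23. The number at an unadjusted p under 0.05 was 0 without spironolactone plus lisinopril mouse 1, 1 without mouse 2 of that group or without prednisolone mouse 1 or 2, and 10 without spironolactone plus lisinopril mouse 3. The median over the members ran from 0.06 without spironolactone plus lisinopril mouse 1 to 0.55 without prednisolone mouse 3.

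Eplerenone plus lisinopril against prednisolone called 0 of 35 members (0.608% of all clusters), and 0 at an unadjusted p under 0.05 (12.5% of all clusters), with overlapping groups for every member (19.9% of all clusters had no overlap). The median was 0.27, beside -0.01 for all clusters, and 32 of 35 members lay above 0 (46.5% of all clusters), including all 13 replication genes. Tyms (7.19, 6.93 and 7.25 with eplerenone plus lisinopril, against 6.57, 6.55 and 7.18 with prednisolone) had the smallest p, at 0.35 ± 0.18 (adjusted p = 0.472). Mcm5 read 6.88, 6.55 and 7.06, against 6.43, 6.11 and 6.64, and was at 0.43 ± 0.23. Mcm4 read 8.34, 7.96 and 8.37, against 7.62, 7.39 and 8.30, and was at 0.46 ± 0.25. The median over the members ran from 0.12 without eplerenone plus lisinopril mouse 3 to 0.53 without prednisolone mouse 3. The comparisons with prednisolone share its 3 arrays. Because the members moved together from mouse to mouse, counts of members above or below 0 are not independent observations in any comparison. At a fold of 2, the size named in the study design, 0 members differed in any of the 6 comparisons. Of all clusters, 0.792% reached that fold with spironolactone plus lisinopril against untreated, 0.654% with eplerenone plus lisinopril and 1.69% under prednisolone. Between the combinations 0.0822% did, and against prednisolone 0.546% with spironolactone plus lisinopril and 0.694% with eplerenone plus lisinopril. A fold of 1.5 was passed by Pcna in prednisolone against untreated (7.31% of all clusters), and by Mki67, Pcna and Mcm4 in spironolactone plus lisinopril against prednisolone (3.15% of all clusters).

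Other genes of the cell cycle came from lists drawn up with earlier results of these data known. Of the 102 genes measured in these lists, 2 passed the test against untreated, both with prednisolone. This share was under that of all clusters, of which 6.39% passed in prednisolone against untreated muscle. Ccnd3, a D cyclin abundant in differentiated muscle cells, fell by 0.39 ± 0.08 against untreated (adjusted p = 0.0178), 1 of 6 G1 cyclins and kinases. Ccnd2, another D cyclin, was at -0.69 ± 0.22 (adjusted p = 0.0906) and the kinase gene Cdk4 at -0.30. Tfdp2, the dimer partner of E2F factors, rose by 0.75 ± 0.14 (adjusted p = 0.0120), 1 of 16 pocket protein, E2F and MuvB genes, with Rbl1 at -0.48 and E2f7 at -0.32 not past the test. None of 7 CDK inhibitors passed: Cdkn1a, which encodes p21, was at 0.63 ± 0.23 (adjusted p = 0.131), Cdkn2c at 0.39 and Cdkn2b at 0.27, each without overlap of the groups, while Cdkn1c was at -0.73. At an unadjusted p under 0.05 there were 3 inhibitors higher and 1 lower, where 21.6% of all clusters reached that level and 26.7% had no overlap of the groups. Of 27 further origin and fork genes 0 passed (1 higher and 3 lower at an unadjusted p under 0.05, a share under that of all clusters), with Orc4 at -0.25, the kinase gene Cdc7 at -0.35 and the polymerase gene Pola1 at -0.36, and of 46 further kinetochore and spindle genes 0 passed (0 at an unadjusted p under 0.05), with Cks2 at -0.23, Pbk at -0.33 and Kif22 at 0.28.

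Neither combination changed a gene of these 5 lists past the threshold against untreated. Those with the smallest p under spironolactone plus lisinopril were Cdk2 (0.19), Ccnd2 (0.31) and Ccnd3 (-0.09) among the G1 genes, and Cdkn2c (0.47), Cdkn2d (0.32) and Cdkn1c (0.62) among the inhibitors. Lin9, a MuvB subunit, was at 0.42 ± 0.09 (adjusted p = 0.146), followed by Tfdp2 (0.45) and Rb1 (0.30), then Orc3 (0.30), Orc6 (0.28) and Gins3 (0.28), and Kif22 (0.38), Sgo2a (0.27) and Sgo1 (0.30). Under eplerenone plus lisinopril they were Cdk2 (0.22), Ccnd3 (0.12) and Cdk4 (0.15), and Cdkn2d (0.35), Cdkn1c (0.70) and Cdkn2c (0.24). The rest were Lin9 (0.26), E2f2 (0.75) and Lin37 (0.24), Orc3 (0.25), Gins4 (0.17) and Orc4 (-0.10), and Cdc25b (0.29), Kif22 (0.37) and Spc24 (0.24). At an unadjusted p under 0.05, all higher, were 2 inhibitors, 3 pocket protein, E2F and MuvB genes and 3 origin and fork genes with spironolactone plus lisinopril, where 16.2% of all clusters reached that level. With eplerenone plus lisinopril they were 2, 2 and 1, and 1 kinetochore and spindle gene, where 13.4% of all clusters did. Over the 5 lists together the share was below that of all clusters in both comparisons.

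Markers of cell types that could carry the proliferation transcripts were read in the same arrays. Fibre markers were high: Ckm averaged 18.78 over the 12 arrays, while Acta1 and Myh4 both averaged 19.92, had identical values in every array and lay at the top of the scale (19.93), so changes in those 2 cannot be seen. The members' array pattern, held by 3.2% of all tested clusters, was met by 4 of 11 macrophage markers (Adgre1, Cd68, Csf1r and Mrc1). It was also met by 2 of 8 myoblast markers (Myod1 and Myog, the regulators of myoblast commitment and differentiation). It was met by 0 of 8 neutrophil, 0 of 8 T, B and NK cell, 0 of 6 fibroblast, 0 of 5 endothelial and 0 of 11 fibre markers. In 3 or 4 groups the highest mouse matched for 10 of 11 macrophage, 3 of 8 myoblast and 1 of 8 neutrophil markers. It did so for 0 T, B and NK cell, fibroblast, endothelial or fibre markers, and for 4218 of all 30412 clusters. The macrophage median deviated by 0.09, -0.27 and 0.03 with spironolactone plus lisinopril, 0.08, -0.31 and 0.31 with eplerenone plus lisinopril, -0.28, -0.43 and -0.05 with prednisolone and 0.07, 0.68 and 0.13 in untreated mice. In every group its highest mouse was the same as that of the members. The sizes differed: in spironolactone plus lisinopril mouse 1 the median of the members was 0.55 and that of macrophages 0.09, and in prednisolone mouse 3 they were 0.34 and -0.05. With prednisolone 2 of 11 macrophage markers fell, Mrc1 by 1.22 (adjusted p = 0.0184) and C1qb by 0.94 (adjusted p = 0.0166), with a list median of -0.53, where 6.39% of all clusters passed in either direction. This was not seen in macrophage markers alone: 2 of 6 fibroblast markers fell (list median -0.47), as did 1 of 5 endothelial (-0.75), 1 of 8 T, B and NK cell (-0.37) and 1 of 8 neutrophil markers (-0.15).

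The myoblast median deviated by 0.40, -0.08 and -0.25 with spironolactone plus lisinopril, 0.11, 0.16 and 0.07 with eplerenone plus lisinopril, -0.15, 0.08 and 0.20 with prednisolone, and -0.40, 0.04 and -0.22 in untreated mice. Its summed signal, which is led by Des, a gene that mature fibres also express, ran from 17.06 to 17.30 with spironolactone plus lisinopril, 17.19 to 17.30 with eplerenone plus lisinopril, 17.49 to 17.62 with prednisolone and 16.92 to 17.12 in untreated mice (log2 of the sum). Des rose by 0.52 with prednisolone (adjusted p = 0.00762), the 1 myoblast marker of 8 to pass there. The summed macrophage signal ran from 18.76 to 18.84, 18.58 to 19.02 and 18.69 to 18.92 in the same treated groups, against 19.00 to 19.57 in untreated mice. The absence of a marker cannot be read from this log2 scale. The part of these cell types in the swings of the members was not tested.

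**Figure D5:**
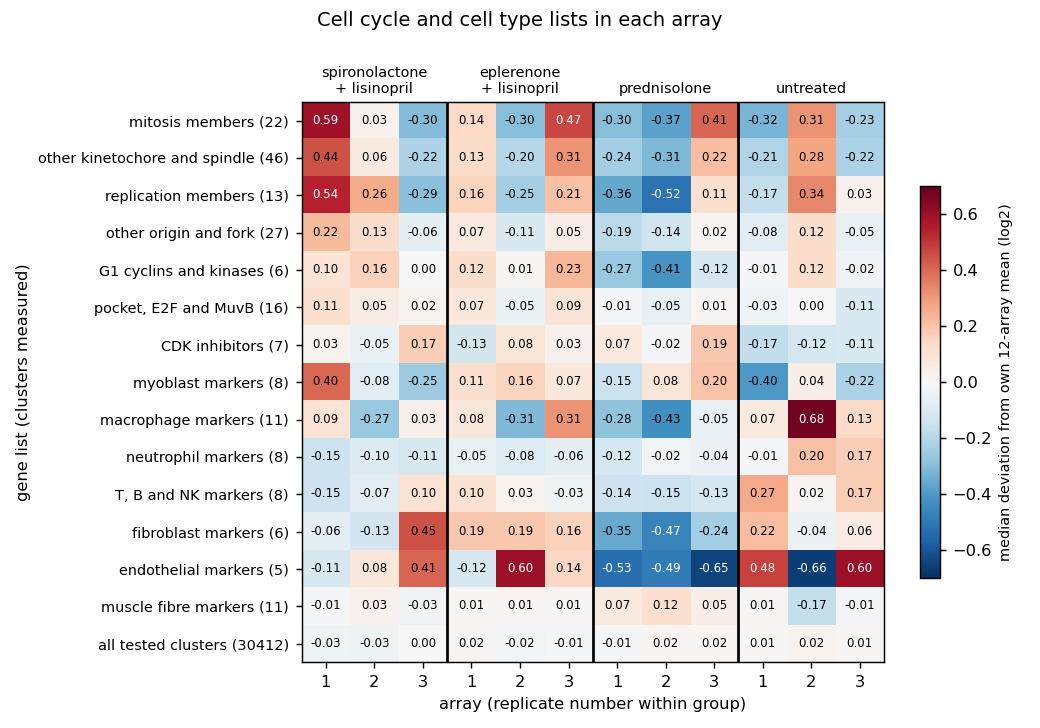
Median deviation of each gene list from its own 12-array mean (log2) in each array, with the number of measured clusters in brackets. The mitosis members range from 0.59 to -0.37, the further kinetochore and spindle genes are high and low in the same arrays, and fibre markers and all tested clusters stay near 0.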

How the data were processed

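Affymetrix single-colour arrays of quadriceps RNA were read for 12 mice, 3 in each of 4 groups, and the labels call them biological replicates. The table deposited by the authors holds log2 signals per transcript cluster. Per the submitters' processing notes, RMA, Affymetrix Expression Console and Transcriptome Analysis Console were used; which genome assembly and software versions they used is not given in the sources used here. Values run from 1.61 to 19.93, above what 16-bit scans give on a log2 scale, so a rescaling step that is not described was applied. Gene symbols came from the platform's annotation of each cluster, repeated symbols were merged, and 827 were updated by gene ID.

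limma 3.58.1 (R 4.3.3) estimated the group means from the 12 arrays together, with 8 residual and 2.94 prior degrees of freedom and no intensity trend. It tested 6 pairwise differences (two-sided) and an F-test, with Benjamini-Hochberg adjustment over 30412 clusters and a threshold of 0.05; dim clusters stayed in. All intervals are at 95%. With 3 arrays a group the number of arrays limits the precision, and a permutation of 3 against 3 arrays reaches no lower than p = 0.1. Named by rule were fixed genes, members past the threshold and the 3 members of smallest p per comparison; for the other lists, genes past the threshold or the 3 of smallest p against untreated. Beyond this rule, further members are named by function. The members and lists were chosen with earlier results of these data known. The alternatives were normalization, filters, fit settings, a replicate block and each array left out. The fit was tested on simulated data with known changes and independent noise in each cluster. That simulation did not hold the shared swings of the members.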

Additional observations from a re-analysis of the deposited data

How the results depend on the processing

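Each count of members past the threshold (6 comparisons and the F-test) and each median was recomputed under quantile normalization, equal array medians, dim clusters left out (33 members stayed), an intensity trend, fits of the 2 groups alone, all clusters tested, averaging of a gene's clusters, a replicate block and each array left out. The count of members past the threshold was 0 in all of these except prednisolone minus untreated with 1 array left out, where it ran from 0 to 1 (Tyms, without prednisolone mouse 3). Equal medians or quantile normalization moved the median of all clusters by at most 0.06. Medians of the members changed sign with single arrays left out: -0.06 to 0.38 for spironolactone plus lisinopril and -0.04 to 0.33 for eplerenone plus lisinopril minus untreated, -0.31 to 0.11 for prednisolone minus untreated, and -0.16 to 0.27 between the combinations. They were 0.06 to 0.55 for spironolactone plus lisinopril and 0.12 to 0.53 for eplerenone plus lisinopril minus prednisolone. Members at a fold of 2 ran from 0 to 1 with 1 array left out in both comparisons against prednisolone. At a fold of 1.5, with all 12 arrays, they were 1 for prednisolone minus untreated and 3 for spironolactone plus lisinopril minus prednisolone. The counts at a fold of 1.5 with 1 array left out are not given here. Deviations of same-numbered arrays of different groups had correlations of -0.24 to 0.16, and 3 of 12 arrays matched best with their own number. This gave no sign that the numbers pair the mice, but weak correlations cannot settle it. With the replicate block 0 members passed the adjusted threshold in any comparison, changing no such call. Members at an unadjusted p under 0.05 were then 1 in place of 3 for prednisolone minus untreated and 3 in place of 5 for spironolactone plus lisinopril minus prednisolone. With only the groups compared fitted, they were 3 in place of 5 there, and 1 in place of 0 for eplerenone plus lisinopril minus prednisolone. Over all clusters the block left 1 call in place of 25 for spironolactone plus lisinopril and 2 in place of 9 for eplerenone plus lisinopril minus untreated, 1452 in place of 1942 for prednisolone minus untreated, and 75 in place of 250 and 82 in place of 185 for spironolactone plus lisinopril and eplerenone plus lisinopril minus prednisolone. The larger spread of the members limits what 3 arrays a group can show.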
